A study of Mus musculus with 48 samples.

Results

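The liver X receptor (LXR) target genes and the genes of cholesterol efflux were followed in the livers of 48 male mice. The 10 genes were *Nr1h3*, *Nr1h2*, *Abca1*, *Abcg1*, *Abcg5*, *Abcg8*, *Mylip*, *Scarb1*, *Lcat* and *Soat2*. They were found by gene name among the probes of the arrays, and were represented by 16 of 56605 probes. Of these, 15 were among the 33323 probes bright enough to be tested, and a further *Nr1h2* probe was well above background on 0 of 48 arrays. Where a gene had several tested probes, it was read by the brightest. The study asked how peroxisome proliferator-activated receptor α (PPARα, gene *Ppara*), in hepatocytes or in all cells, shapes the response of the liver to a high-fat diet. Genotype was WT, Pparα-/- (germline deletion in every cell) or Pparα hep-/- (albumin-Cre+/- and *Ppara* flox/flox, so that the deletion is driven in hepatocytes). WT and Pparα-/- mice were C57BL/6J. The Pparα hep-/- mice came from a floxed strain, whose background is not stated, crossed to C57BL/6J albumin-Cre mice. Each genotype received a control diet (CTRL) or a high-fat diet (HFD, 60% fat), with 8 mice in each of the 6 groups and 1 array a mouse. Per the labels the mice were 20 weeks old after 12 weeks of diet, while the methods give a shorter feeding period, spent at thermoneutrality in all groups. WT mice came from a supplier and the Pparα-/- and Pparα hep-/- mice from the breeding facility of the study, so genotype and origin cannot be told apart. Nothing in the labels says which mice shared a cage or litter, and each mouse was taken as 1 sample.

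LXRα (*Nr1h3*) and LXRβ (*Nr1h2*) are nuclear receptors that sense oxysterols and, as partners of the retinoid X receptor, switch on genes that carry cholesterol out of cells. *Abca1* and *Abcg1* encode transporters that load cholesterol onto apolipoprotein A1 and onto HDL, whereas *Abcg5* and *Abcg8* encode the partners of the transporter that secretes sterols into bile. *Mylip* (also called Idol) encodes a ubiquitin ligase that degrades the LDL receptor, *Scarb1* the HDL receptor SR-B1, *Lcat* the plasma enzyme that esterifies cholesterol on HDL, and *Soat2* the acyltransferase that makes cholesterol esters in hepatocytes.

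*Abcg5* and *Abcg8* lie head to head on chromosome 17, and the stretch between their start sites is shown because both genes moved together in the results below. In RefSeq (GRCm38.p6) *Abcg5* starts at position 84683011 on the minus strand and *Abcg8* at position 84683121 on the plus strand, with 109 bases between them. The stretch is given in the direction of *Abcg8*, with each AGATAA hexamer (here on the other strand, TTATCT) in capitals. The second stretch is the 120 bases before the start of *Abca1* on the minus strand. There the capitals mark the match on the other strand to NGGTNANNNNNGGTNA, a relaxed form of the direct repeat with a spacer that LXR and its partner bind.
Abcg5-Abcg8, chr17:84683012-84683120: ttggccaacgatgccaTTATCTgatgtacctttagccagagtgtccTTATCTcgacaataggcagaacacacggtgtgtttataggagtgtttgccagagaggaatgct
Abca1, chr4:53159896-53160015: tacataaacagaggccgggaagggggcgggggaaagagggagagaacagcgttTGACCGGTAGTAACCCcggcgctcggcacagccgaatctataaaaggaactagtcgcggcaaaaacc
RefSeq windows of 250 bases before to 50 bases after a start were at hand for 7 of the 10 genes, in 9 windows, and not for *Abcg1*, *Scarb1* and *Soat2*. Both motifs were searched on both strands, and were picked after the sequences had been seen. The repeat was found in 1 of the 9 windows, that of *Abca1*, and in 0.718% of all 32851 windows. The hexamer occurred 3 times in the window of *Abcg5* and 3 times in the overlapping window of *Abcg8*, and 1 time in that of *Lcat*. RefSeq gives *Abcg8* a second start, whose window at chr17:84676052-84676351 held the hexamer 0 times. At least 3 copies were present in 0.107% of all windows. These are matches of letters, not sites shown to be bound.

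Levels are log2 of the normalised median spot intensity, and differences are fitted log2 differences from limma, with array weights and the wash batch of the arrays as a term. Because arrays that depart from the other mice of their group weigh less, whatever the reason, a fitted difference can depart from the difference of the group means. A gene was called where its Benjamini-Hochberg adjusted p did not exceed 0.05 over all 33323 tested probes. All 15 tested probes of the 10 genes were well above background on 48 of 48 arrays, so no level given here is at the floor of the assay. Array weights ran from 0.189 to 2.53, and the lowest belonged to Pparα hep-/- CTRL mouse 1 and WT CTRL mouse 6. Signal of *Ppara* was present in every group, with medians of 14.54 and 15.07 in WT mice on CTRL and HFD, 14.11 and 14.24 in Pparα hep-/- mice and 13.92 and 14.03 in Pparα-/- mice. The *Ppara* signal of Pparα-/- minus WT mice on CTRL was -0.65 in log2, with an adjusted p of 1.1e-06 in limma, and a second *Ppara* probe gave -1.11 (adjusted p = 5.27e-13). For Pparα hep-/- mice these were -0.42 (adjusted p = 0.000887) and -0.10 (adjusted p = 0.454). Whether the *Ppara* probes lie in the deleted exon was not determined, so residual signal does not test the deletion. As the tissue is whole liver, fewer cells of a type and less RNA per cell cannot be told apart.

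The summed signal of hepatocyte markers differed little between the groups, and that of macrophage markers differed more. A sum follows its brightest markers, and quantile normalization ties the brightest probes to similar values on every array. The narrow range of the hepatocyte sum therefore does not show that hepatocyte content was alike. The 6 hepatocyte markers, *Alb* and *Ttr* among them, were well above background on every array, and their summed log2 signal had medians between 20.60 and 20.65 in the 6 groups. With HFD 2, 1 and 2 of the 6 were called in WT, Pparα hep-/- and Pparα-/- mice, *Cps1* lower in each, *Tat* lower in Pparα-/- and *Cyp2e1* higher in WT mice. The 8 Kupffer cell markers, *Clec4f* and *Vsig4* among them, summed to medians of 14.41 and 14.51 in WT mice on CTRL and HFD, 15.03 and 15.20 in Pparα hep-/- mice, and 14.75 and 15.36 in Pparα-/- mice. The 8 markers of recruited or lipid-associated macrophages, *Trem2* and *Gpnmb* among them, had medians of 12.66 and 12.73, 13.01 and 13.64, and 13.53 and 14.12 in the same order. Single mice of the lower groups stood above all 8 Pparα-/- HFD mice, whose highest was 14.27. These, named after their values were seen, were Pparα hep-/- CTRL mouse 1 (15.57), WT CTRL mouse 6 (15.04), WT HFD mice 2 (14.92) and 6 (14.48), Pparα hep-/- HFD mouse 5 (14.69) and Pparα-/- CTRL mouse 2 (14.45). The first 4 of these arrays also had the lowest weights of all 48 (0.189, 0.208, 0.343 and 0.372), so that mice with high macrophage signal in these groups counted for less in the fit. With HFD, 6 of 8 Kupffer cell markers rose in Pparα-/- mice, 2 of 8 in Pparα hep-/- mice and 0 of 8 in WT mice. Of the recruited or lipid-associated macrophage markers 6 of 8 rose in Pparα-/- mice, 6 of 8 in Pparα hep-/- mice and 0 of 8 in WT mice, where *Cd9* fell. Of the stellate cell markers 6 of 6 rose with HFD in Pparα-/- mice, 3 of 6 in Pparα hep-/- mice and 0 of 6 in WT mice. Of the 7 sinusoidal endothelial markers 2, 2 and 0 rose in the same order. Over all probes 24.8%, 20.2% and 18.7% were called with HFD in Pparα-/-, Pparα hep-/- and WT mice, in either direction. These marker counts are set beside *Abcg1* and *Mylip* below, and their part in those results was not tested.

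**Figure D1:**
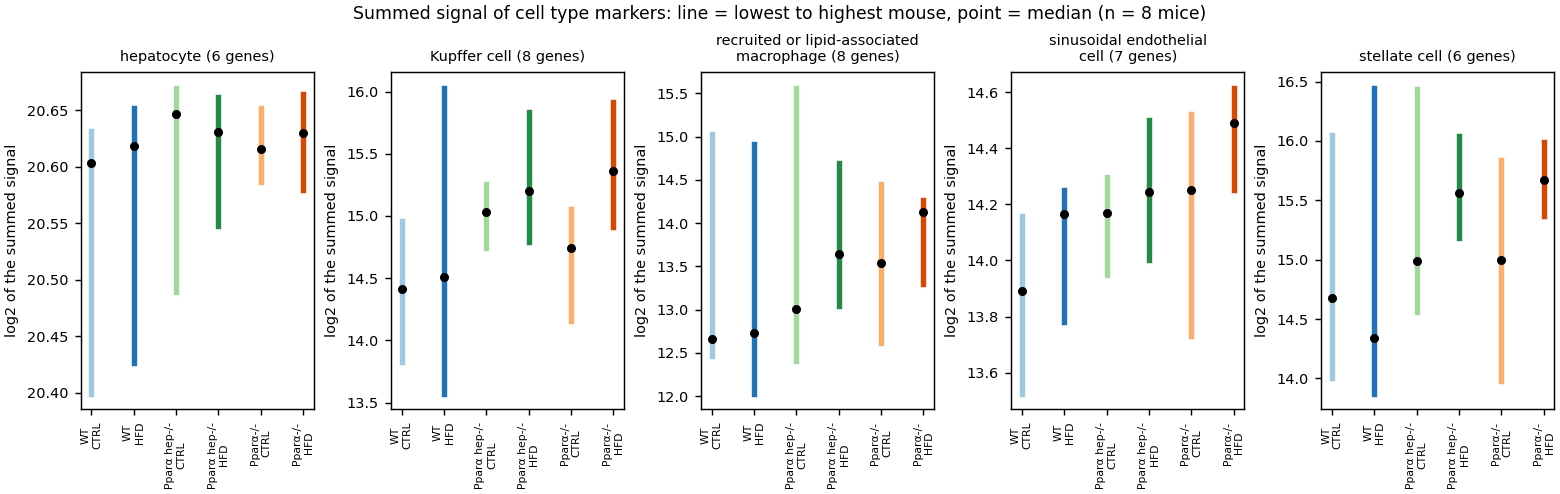
Log2 of the summed signal of 5 lists of cell type markers in the 6 groups, with a point at the median and a line from the lowest to the highest of 8 mice. Hepatocyte medians stay between 20.60 and 20.65, while those of recruited or lipid-associated macrophages run from 12.66 in WT CTRL to 14.12 in Pparα-/- HFD.

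With HFD 1 of the 10 genes was called in WT mice, 2 in Pparα hep-/- mice and 7 in Pparα-/- mice. The gene in WT mice that passed the test was *Abca1*, which fell, and 18.7% of all tested probes were called there. The Pparα hep-/- mice had 2 of 10 lower with HFD, *Abcg5* and *Abcg8*, where 20.2% of all probes were called. In Pparα-/- mice 7 of 10 passed, where 24.8% of all probes were called. *Abcg1*, *Nr1h3*, *Nr1h2*, *Mylip*, *Scarb1* and *Soat2* rose there, and *Abcg5* fell. The 10 genes had median log2 differences of -0.18, 0.00 and 0.15 in WT, Pparα hep-/- and Pparα-/- mice, beside -0.01, -0.01 and -0.02 over all tested probes. Without array weights, 0, 1 and 4 of the 10 genes were called in WT, Pparα hep-/- and Pparα-/- mice. Over all probes 12.6%, 3.81% and 12.1% were called in that fit, in the same order. The genes whose calls were lost are named below.

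**Figure D2:**
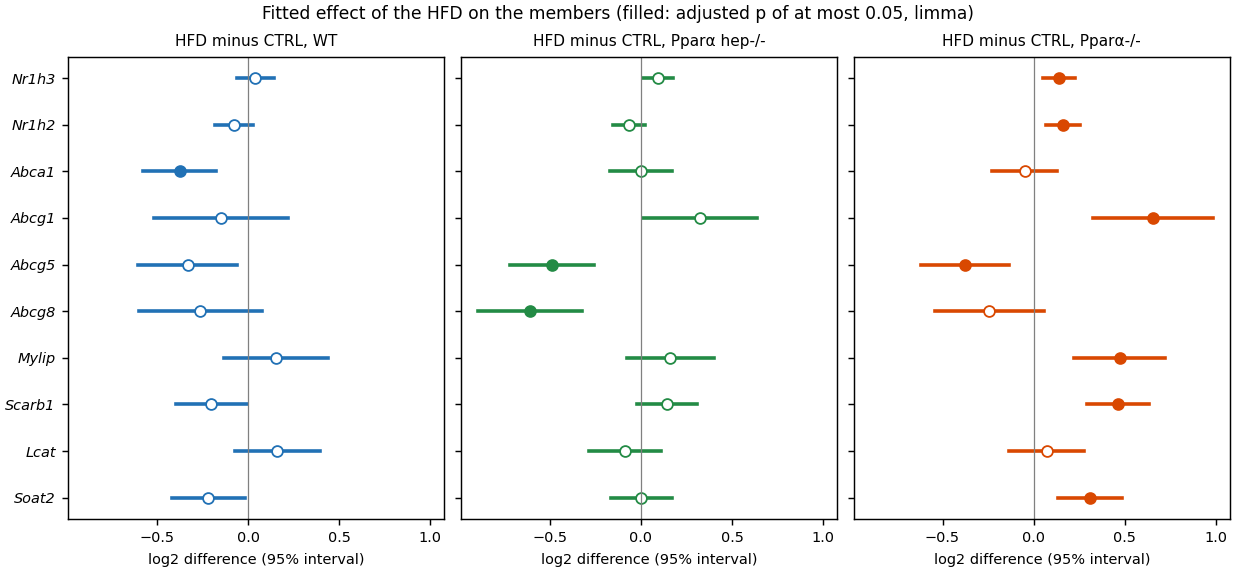
Fitted log2 difference of HFD minus CTRL for the 10 genes in each genotype, with 95% intervals, where filled points are called by limma. In Pparα-/- mice 6 genes lie to the right of 0 with filled points, and Scarb1 has the smallest adjusted p, 0.000116.

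The test of whether the diet effect itself differed between genotypes gave 4 of 10 genes for Pparα-/- against WT mice, where 14.3% of all probes were called. *Abcg1*, *Nr1h2*, *Scarb1* and *Soat2* had a more positive diet effect in Pparα-/- mice. For Pparα hep-/- against WT mice 0 of 10 were called in limma, with 10.4% of all probes called. The smallest adjusted p there was that of *Abca1*, 0.0556, and 2 of the 10, *Abca1* and *Scarb1*, had an unadjusted p under 0.05. For Pparα-/- against Pparα hep-/- mice 1 of 10 was called, *Nr1h2*, beside 3.42% of all probes. Medians over the 10 genes were 0.28, 0.03 and 0.27 in that order, and those of all probes were 0.00, 0.01 and 0.00.

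Between genotypes on the CTRL diet, *Abca1*, *Abcg5* and *Abcg8* were lower in both Pparα-deficient genotypes than in WT mice, and *Abcg1* was not called. In Pparα hep-/- against WT mice 4 of 10 genes were called, with *Abca1*, *Abcg5* and *Abcg8* lower and *Mylip* higher, beside 24.7% of all probes. In Pparα-/- against WT mice 3 of 10 were called, *Abca1*, *Abcg5* and *Abcg8*, all lower, a share below the 34.2% of all probes called. Between Pparα-/- and Pparα hep-/- mice 2 of 10 were called, *Scarb1* and *Lcat*, both higher in Pparα-/- mice, again below the 25.2% of all probes. The median differences were -0.07, 0.03 and 0.03, beside -0.01, -0.02 and 0.00 over all probes.

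On HFD 5, 8 and 6 of the 10 genes were called between genotypes in the fit with array weights. The shares over all probes were also higher than on CTRL in that fit. In Pparα hep-/- against WT mice 5 of 10 were called, *Abcg1* and *Mylip* higher and *Abcg5*, *Abcg8* and *Lcat* lower, beside 26.7% of all probes. In Pparα-/- against WT mice 8 of 10 were called, beside 45.7% of all probes. *Abcg1*, *Nr1h3*, *Nr1h2*, *Mylip*, *Scarb1* and *Soat2* were higher and *Abcg5* and *Abcg8* lower in Pparα-/- mice. In Pparα-/- against Pparα hep-/- mice 6 of 10 were called and all 6 were higher in Pparα-/- mice, beside 30.6% of all probes. The 6 were *Abcg8*, *Nr1h3*, *Nr1h2*, *Scarb1*, *Lcat* and *Soat2*. The median differences were 0.04, 0.22 and 0.24, beside -0.02, -0.03 and 0.00 over all probes. The comparisons of Pparα hep-/- and Pparα-/- mice with WT mice share the WT mice and are not independent of each other. Without array weights 2, 7 and 3 of the 10 genes were called on HFD, beside 9.74%, 31.7% and 18.1% of all probes. On CTRL 4, 2 and 2 were then called, beside 16.6%, 31% and 19.2% of all probes. For Pparα hep-/- against WT mice both the count and the share of all probes were then smaller on HFD. For Pparα-/- against Pparα hep-/- mice the share of all probes was also smaller on HFD in that fit.

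**Figure D3:**
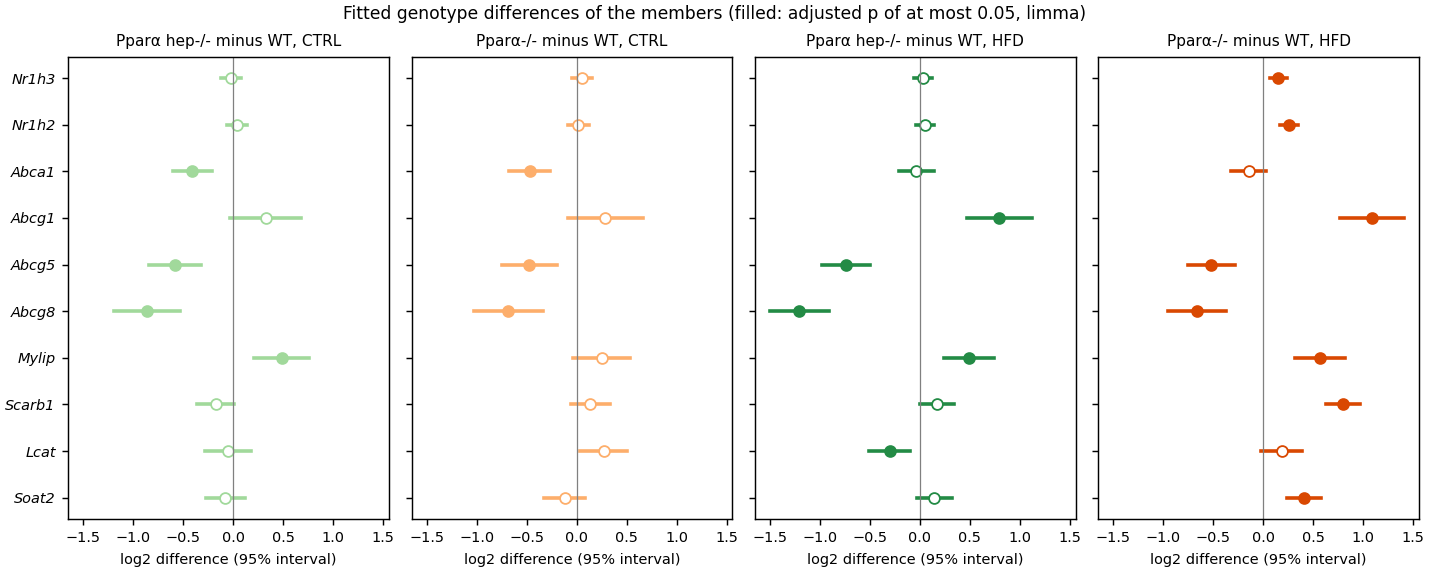
Fitted log2 difference of each Pparα-deficient genotype minus WT on CTRL and on HFD for the 10 genes, with 95% intervals and filled points where limma made a call. Abcg5 and Abcg8 lie left of 0 in all 4 panels, and Abcg1 reaches 1.09 in Pparα-/- mice on HFD.

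*Abcg5* and *Abcg8*, the partners of the biliary sterol transporter, were highest in WT mice and lowest in Pparα hep-/- mice on HFD. The probe of *Abcg5* lies at chr17:85057604-85057663 and that of *Abcg8* at chr17:85099609-85099668 (mm9, the build of the array files). In WT mice the lowest, median and highest *Abcg5* level was 13.31, 14.43 and 15.10 on CTRL and 13.80, 14.05 and 14.25 on HFD. The levels were 13.36, 13.87 and 14.24 in Pparα hep-/- CTRL and 13.13, 13.37 and 13.74 in Pparα hep-/- HFD mice. The Pparα-/- mice had 13.67, 13.86 and 14.30 on CTRL and 13.29, 13.47 and 13.93 on HFD. All 8 Pparα hep-/- HFD mice lay below all 8 WT HFD mice, and the other groups overlapped with their neighbours in level. WT CTRL held both the highest *Abcg5* level of all 48 mice and a mouse, number 6, near the bottom of the range, whose array weight was 0.208. With HFD *Abcg5* fell by 0.49 (SE 0.11, adjusted p = 0.00193) in Pparα hep-/- mice, and in Pparα-/- mice it fell by 0.38 (SE 0.12, 1.30-fold, adjusted p = 0.0165). In WT mice its difference was -0.33, with a 95% interval of -0.60 to -0.06 and an adjusted p of 0.0791 in limma. The diet effect on *Abcg5* was not shown to differ between Pparα hep-/- and WT mice (-0.16, adjusted p = 0.605) or between Pparα-/- and WT mice (-0.05, adjusted p = 0.893). Without WT CTRL mouse 6 and Pparα hep-/- CTRL mouse 1, chosen after the weights were seen, the WT difference was -0.37 with an adjusted p of 0.0384, and with slide in place of the wash batch it was also -0.37 (adjusted p = 0.0321). Without array weights the fall in Pparα-/- mice had an adjusted p of 0.0591.

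Between genotypes, *Abcg5* was lower than in WT mice in Pparα hep-/- mice on CTRL, with a difference of -0.58 (SE 0.13, adjusted p = 0.000758), and in Pparα-/- mice on CTRL, with -0.47 (SE 0.14, 1.39-fold, adjusted p = 0.00531). On HFD it was lower again, with -0.74 (SE 0.12, 1.67-fold, adjusted p = 7.16e-06) in Pparα hep-/- and -0.52 (SE 0.12, 1.43-fold, adjusted p = 0.000291) in Pparα-/- mice. The CTRL deficit of Pparα-/- mice had an adjusted p of 0.0680 without array weights. In order of mean level the groups ran WT CTRL, WT HFD, Pparα-/- CTRL, Pparα hep-/- CTRL, Pparα-/- HFD and Pparα hep-/- HFD. Of the neighbours in that order, Pparα hep-/- CTRL and Pparα-/- HFD differed (0.27, adjusted p = 0.0486 in limma, and 0.0904 without array weights), and the others did not pass the test.

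*Abcg8* had larger fitted differences from WT mice than *Abcg5* in each genotype and diet, although the contrast between the genes was not tested. Its lowest, median and highest level was 12.03, 13.35 and 14.25 in WT CTRL and 12.66, 13.22 and 13.40 in WT HFD mice. The Pparα hep-/- mice had 12.14, 12.65 and 12.86 on CTRL and 11.37, 12.18 and 12.69 on HFD, and the Pparα-/- mice 12.62, 12.80 and 13.13 and 12.15, 12.57 and 12.93. The Pparα hep-/- HFD group reached lowest, and its highest mouse lay just above the lowest WT HFD mouse. With HFD *Abcg8* fell by 0.61 (SE 0.14, 1.52-fold, adjusted p = 0.00201) in Pparα hep-/- mice, and this call was lost without array weights (adjusted p = 0.118 in limma). In WT and Pparα-/- mice its diet differences were -0.26 (adjusted p = 0.302) and -0.24 (adjusted p = 0.234). On CTRL it was lower than in WT mice, with differences of -0.86 (SE 0.16, 1.82-fold, adjusted p = 8.96e-05) for Pparα hep-/- and -0.68 (SE 0.17, 1.60-fold, adjusted p = 0.00137) for Pparα-/- mice. On HFD the differences from WT mice were -1.21 (SE 0.15, 2.31-fold, adjusted p = 3.35e-08) for Pparα hep-/- and -0.66 (SE 0.15, 1.58-fold, adjusted p = 0.000219) for Pparα-/- mice. Pparα-/- mice lay above Pparα hep-/- mice on HFD by 0.54 (SE 0.14, 1.46-fold, adjusted p = 0.00180), with an adjusted p of 0.122 without array weights. In order of mean level the groups were WT CTRL, WT HFD, Pparα-/- CTRL, Pparα hep-/- CTRL, Pparα-/- HFD and Pparα hep-/- HFD. Neighbours differed between WT HFD and Pparα-/- CTRL (0.42, adjusted p = 0.0373, and 0.181 without array weights) and between Pparα-/- HFD and Pparα hep-/- HFD (0.54, adjusted p = 0.0018).

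The pair also moved together from mouse to mouse within the groups. After the mean of each group and wash batch was subtracted, *Abcg5* and *Abcg8* had Pearson's r = 0.904 and Spearman's rho = 0.876 over 48 mice. Both p-values were 1e-05, the smallest that 100000 two-sided permutations can give, and 0.000225 after adjustment over the 45 pairs of the 10 genes. Without the 2 mice farthest from the median of *Abcg5* r was 0.824, and within the wash batches it was 0.949 and 0.781. *Abcg1* and *Mylip* came next, with r = 0.716 and rho = 0.676 (adjusted permutation p = 0.000225 for both). Their r was 0.63 without 2 mice and 0.694 and 0.788 within the batches. *Abcg1* and *Lcat* ran opposite to each other, with r = -0.56 and rho = -0.60 (adjusted permutation p = 3e-04 and 0.00045), -0.51 without 2 mice, and -0.70 and -0.41 within the batches. *Mylip* was also opposite to *Scarb1* (r = -0.44, rho = -0.48) and to *Lcat* (r = -0.44, rho = -0.46), with adjusted permutation p between 0.00607 and 0.0114. These 5 pairs passed by both measures, and 6 further pairs by Pearson's r alone. Both genes of a pair were read from the same arrays.

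**Figure D4:**
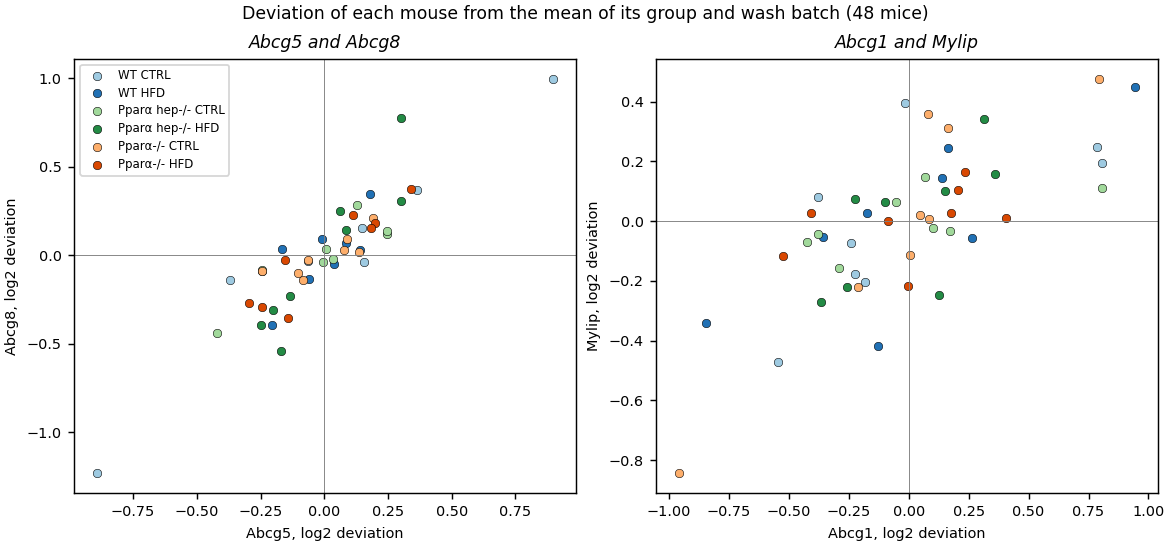
Deviation of each of 48 mice from the mean of its group and wash batch, on log2 axes, for Abcg5 against Abcg8 (left) and Abcg1 against Mylip (right), coloured by group. Both panels rise from lower left to upper right, with r = 0.904 and 0.716, and WT CTRL mice form both ends of the left panel.

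*Abca1*, the transporter for lipid-poor apolipoprotein A1, was highest in WT mice on CTRL. Its probe lies at chr4:53043944-53044003 (mm9). WT mice had lowest, median and highest levels of 11.89, 12.28 and 12.43 on CTRL and 11.68, 11.84 and 12.58 on HFD. The Pparα hep-/- mice had 11.68, 11.82 and 12.04 and 11.49, 11.83 and 12.12, and the Pparα-/- mice 11.51, 11.82 and 12.10 and 11.56, 11.72 and 11.91. All groups overlapped, and WT HFD mice 1 and 2 lay as high as the WT CTRL mice. Their array weights were 0.537 and 0.343. Their summed log2 signal of 4 neutrophil markers, looked at after the levels were seen, was 13.39 and 14.88, beside a WT HFD median of 10.17. The part of neutrophils in the level of *Abca1* was not tested. In WT mice on HFD *Abca1* fell by 0.38 (SE 0.10, 1.30-fold, adjusted p = 0.00572). The fall did not pass without array weights (-0.22, adjusted p = 0.173 in limma), and the plain differences within the wash batches were -0.17 and -0.28. No diet difference was detected in Pparα hep-/- mice (0.00, 95% interval -0.17 to 0.17) or Pparα-/- mice (-0.05, 95% interval -0.23 to 0.13). The diet effects of the genotypes were not shown to differ, with interactions of 0.38 (adjusted p = 0.0556) for Pparα hep-/- and 0.33 (adjusted p = 0.0904) for Pparα-/- against WT mice. On CTRL *Abca1* was lower than in WT mice, with -0.41 (SE 0.10, 1.33-fold, adjusted p = 0.00129) in Pparα hep-/- and -0.47 (SE 0.10, 1.39-fold, adjusted p = 0.000251) in Pparα-/- mice. On HFD neither Pparα hep-/- (-0.04, adjusted p = 0.808) nor Pparα-/- mice (-0.14, adjusted p = 0.177) passed the test against WT mice. A second *Abca1* probe was called in the same direction in the 3 comparisons named here, and also for Pparα-/- against WT mice on HFD (-0.25, adjusted p = 0.0394). In the order of means, WT CTRL differed from the next group, WT HFD, and the other 4 groups followed without a called step.

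*Abcg1*, which passes cholesterol to HDL and is known from macrophages, was highest in Pparα-/- mice on HFD. The probe is at chr17:31252580-31252639 (mm9). WT mice spread widely, from 8.91, 9.33 and 10.35 (lowest, median and highest) on CTRL to 8.64, 9.24 and 10.43 on HFD. The Pparα hep-/- mice had 9.48, 9.78 and 10.74 on CTRL and 9.46, 9.97 and 10.50 on HFD. In Pparα-/- mice the levels were 8.83, 9.65 and 10.58 on CTRL and 9.68, 10.36 and 10.61 on HFD. Groups overlapped throughout, since single WT mice reached the levels of the Pparα-/- HFD group. Among these were WT CTRL mouse 6 (10.35) and WT HFD mouse 6 (10.43), and the highest mouse of all was Pparα hep-/- CTRL mouse 1 (10.74), each an array of high macrophage signal and low weight. *Abcg1* rose with HFD in Pparα-/- mice by 0.65 (SE 0.16, 1.57-fold, adjusted p = 0.00275), and its diet differences were -0.15 (adjusted p = 0.650) in WT and 0.32 (adjusted p = 0.136) in Pparα hep-/- mice. The diet effect was more positive in Pparα-/- than in WT mice by 0.80 (SE 0.25, adjusted p = 0.0223). On HFD *Abcg1* was higher than in WT mice by 0.80 (SE 0.16, 1.74-fold, adjusted p = 0.000243) in Pparα hep-/- mice and by 1.09 (SE 0.16, 2.13-fold, adjusted p = 2.82e-07) in Pparα-/- mice. Without array weights the adjusted p was 0.0630 for the rise in Pparα-/- mice, 0.142 for its difference from WT and 0.0733 for Pparα hep-/- against WT mice on HFD. Without the filter on dim probes the difference of the diet effect had an adjusted p of 0.0734. On CTRL neither Pparα hep-/- (0.32, adjusted p = 0.191) nor Pparα-/- mice (0.29, adjusted p = 0.245) passed the test against WT mice in limma. No neighbours in the order of group means, from Pparα-/- HFD down to WT HFD, passed the test.

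*Mylip*, the ligase that degrades the LDL receptor, was highest on average in Pparα-/- HFD and lowest in WT CTRL mice. Its lowest, median and highest levels were 8.20, 8.88 and 9.11 in WT CTRL and 8.35, 8.96 and 9.52 in WT HFD mice. They were 9.09, 9.22 and 9.39 in Pparα hep-/- CTRL, 8.99, 9.35 and 9.65 in Pparα hep-/- HFD, 7.93, 9.14 and 9.57 in Pparα-/- CTRL and 9.24, 9.41 and 9.71 in Pparα-/- HFD mice. The Pparα-/- HFD mice all lay above the WT CTRL mice, and Pparα-/- CTRL mouse 8 was the lowest of the 48. *Mylip* rose with HFD in Pparα-/- mice by 0.47 (SE 0.13, 1.39-fold, adjusted p = 0.00469). The plain difference was 0.10 within one wash batch and 0.77 within the other. It was higher than in WT mice by 0.49 (SE 0.14, adjusted p = 0.00692) in Pparα hep-/- mice on CTRL, by 0.49 (SE 0.12, 1.41-fold, adjusted p = 0.00247) in Pparα hep-/- mice on HFD and by 0.57 (SE 0.12, 1.48-fold, adjusted p = 0.000181) in Pparα-/- mice on HFD. The second of these had an adjusted p of 0.0601 without array weights. On CTRL the difference of Pparα-/- from WT mice was 0.25 (adjusted p = 0.179), and the diet differences in WT and Pparα hep-/- mice were 0.15 (adjusted p = 0.510) and 0.16 (adjusted p = 0.354). No neighbours in the order of means passed the test.

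Macrophage markers were called both where *Abcg1* or *Mylip* was called and where neither was. For Pparα-/- against WT mice on HFD, 7 of 8 Kupffer cell markers and 8 of 8 markers of recruited or lipid-associated macrophages were higher, with median log2 differences of 1.25 and 1.49, and 45.7% of all probes were called. For Pparα hep-/- against WT mice on HFD, 5 of 8 and 7 of 8 were higher, with medians of 0.77 and 1.12, beside 26.7% of all probes called. For Pparα hep-/- against WT mice on CTRL, where *Mylip* was called and *Abcg1* was not, 5 of 8 Kupffer cell markers were higher and 0 of 8 of the other list, beside 24.7% of all probes. In Pparα-/- mice with HFD, 6 of 8 of each list rose, beside 24.8% of all probes called. With HFD in Pparα hep-/- mice, where neither *Abcg1* nor *Mylip* was called, 6 of 8 markers of recruited or lipid-associated macrophages rose as well, with a median of 0.80, and 2 of 8 Kupffer cell markers, beside 20.2% of all probes. For Pparα-/- against WT mice on CTRL, also without a call for either gene, 3 of 8 Kupffer cell markers were higher, which is 37.5%. Of the other list 2 of 8 were higher, which is 25%. Over all probes 34.2% were called there in either direction, and 45.5% of those calls were higher. The shares over all probes in this paragraph all count both directions. The genes most like *Abcg1* over the 48 arrays were *Rgs2*, *Tmsb4x* and *Evl*, with r between 0.953 and 0.957 after wash batch means were subtracted. Those most like *Mylip* were *Cd38* (r = 0.897), *C1qtnf1* and *Sh3tc1*. These likenesses are descriptions over arrays that share groups, and the part of cell makeup in the levels of *Abcg1* and *Mylip* was not tested.

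The receptors moved little. *Nr1h3* (LXRα) had group medians between 13.58 in Pparα hep-/- CTRL and 13.83 in Pparα-/- HFD mice, and its 48 values ran from 13.38 to 13.91. The lowest, median and highest *Nr1h3* level was 13.51, 13.63 and 13.87 in Pparα-/- CTRL and 13.70, 13.83 and 13.91 in Pparα-/- HFD mice, beside 13.63, 13.66 and 13.80 in WT HFD mice. The Pparα-/- HFD mice overlapped with every other group. *Nr1h3* rose with HFD in Pparα-/- mice by 0.14 (SE 0.04, adjusted p = 0.0153), and on HFD Pparα-/- mice exceeded WT mice by 0.15 (SE 0.04, 1.11-fold, adjusted p = 0.00359) and Pparα hep-/- mice by 0.12 (SE 0.04, 1.09-fold, adjusted p = 0.0195). The comparison with WT mice rested on the signal used. With the background-subtracted processed signal, scaled to the 75th percentile of each array, it was 0.00 (adjusted p = 0.954 in limma), the rise in Pparα-/- mice was 0.04 (adjusted p = 0.616), and Pparα hep-/- mice lay below WT mice (-0.14, adjusted p = 0.027). Without array weights the 2 comparisons of Pparα-/- mice on HFD with the other genotypes had adjusted p of 0.0522 and 0.119. Without the filter on dim probes the rise in Pparα-/- mice had an adjusted p of 0.0503 and the comparison with Pparα hep-/- mice one of 0.0645. A second *Nr1h3* probe was called in none of the 12 comparisons in limma. The diet differences in WT and Pparα hep-/- mice were 0.04 (adjusted p = 0.651) and 0.09 (adjusted p = 0.109).

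*Nr1h2* (LXRβ) had group medians between 12.44 in WT HFD and 12.62 in Pparα-/- HFD mice. The lowest, median and highest level was 12.38, 12.50 and 12.63 in WT CTRL, 12.37, 12.44 and 12.55 in WT HFD, 12.39, 12.51 and 12.64 in Pparα-/- CTRL and 12.55, 12.62 and 12.85 in Pparα-/- HFD mice. The lowest Pparα-/- HFD mouse lay level with the highest WT HFD mouse, so the groups touched. *Nr1h2* rose with HFD in Pparα-/- mice by 0.16 (SE 0.05, 1.12-fold, adjusted p = 0.00791), and the diet effect was more positive than in WT mice by 0.24 (SE 0.07, adjusted p = 0.0165) and than in Pparα hep-/- mice by 0.22 (SE 0.06, adjusted p = 0.0356). On HFD Pparα-/- mice exceeded WT mice by 0.25 (SE 0.05, 1.19-fold, adjusted p = 8.64e-06) and Pparα hep-/- mice by 0.21 (SE 0.04, 1.15-fold, adjusted p = 0.000154). Without array weights the rise and both differences of the diet effect had adjusted p of 0.0577, 0.0809 and 0.279. With the processed signal the rise was 0.05 (adjusted p = 0.441), the difference from WT on HFD 0.11 (adjusted p = 0.0623), and the difference of the diet effect from that of WT mice 0.11 (adjusted p = 0.305). The mean of its tested probes gave 0.08 (adjusted p = 0.151) for the rise and 0.09 (adjusted p = 0.0605) for Pparα-/- against Pparα hep-/- mice on HFD, and no other *Nr1h2* probe was called in any of the 12 comparisons. The difference of the diet effect between Pparα-/- and Pparα hep-/- mice was also lost with slide in place of the wash batch (adjusted p = 0.0741), with the replicate block (adjusted p = 0.0631), without the filter on dim probes (adjusted p = 0.125) and with the mean of its probes (adjusted p = 0.0514). That between Pparα-/- and WT mice was lost under the last 2 of these as well (adjusted p = 0.0581 and 0.0777). In order of means Pparα-/- HFD stood above the next group, Pparα hep-/- CTRL (0.14, adjusted p = 0.00685), and no further neighbours passed the test.

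*Scarb1*, the HDL receptor through which hepatocytes take up cholesterol esters, was highest in Pparα-/- mice on HFD. Its probe lies at chr5:125757483-125757542 (mm9). The lowest, median and highest level was 13.02, 13.26 and 13.45 in Pparα-/- CTRL and 13.51, 13.69 and 13.94 in Pparα-/- HFD mice. WT mice had 12.65, 13.11 and 13.37 on CTRL and 12.72, 12.97 and 13.46 on HFD, and Pparα hep-/- mice 12.63, 12.98 and 13.29 and 12.98, 13.12 and 13.32. All 8 Pparα-/- HFD mice lay above every mouse of the other 5 groups on this probe. *Scarb1* rose with HFD in Pparα-/- mice by 0.46 (SE 0.09, 1.38-fold, adjusted p = 0.000116), and its differences were -0.20 (adjusted p = 0.144) in WT and 0.14 (adjusted p = 0.222) in Pparα hep-/- mice. The diet effect was more positive in Pparα-/- than in WT mice by 0.67 (SE 0.13, adjusted p = 0.000471), while the difference between Pparα-/- and Pparα hep-/- mice did not pass (0.32, adjusted p = 0.129). On HFD *Scarb1* in Pparα-/- mice exceeded that in WT mice by 0.80 (SE 0.08, 1.74-fold, adjusted p = 9.46e-11) and that in Pparα hep-/- mice by 0.63 (SE 0.08, 1.55-fold, adjusted p = 1.20e-08). On CTRL Pparα-/- mice exceeded Pparα hep-/- mice by 0.31 (SE 0.09, 1.24-fold, adjusted p = 0.00626), and against WT mice the difference was 0.14 (adjusted p = 0.304). A second probe passed for the rise in Pparα-/- mice (0.31, adjusted p = 0.0159) and for Pparα-/- mice on HFD against WT (0.48, adjusted p = 6.82e-05) and Pparα hep-/- mice (0.40, adjusted p = 0.000542). On that probe the groups overlapped, with 8.98 to 9.70 in Pparα-/- HFD mice beside values of up to 9.33 in WT HFD and 9.30 in Pparα hep-/- CTRL mice. In order of means Pparα-/- HFD differed from Pparα-/- CTRL below it, and no lower neighbours passed the test.

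*Lcat*, which hepatocytes secrete, separated Pparα-/- from Pparα hep-/- mice rather than the diets. Its lowest, median and highest level was 13.73, 14.03 and 14.39 in Pparα-/- CTRL and 13.83, 14.13 and 14.42 in Pparα-/- HFD mice. For Pparα hep-/- mice it was 13.37, 13.59 and 14.02 and 13.30, 13.70 and 14.12, and in WT mice 13.46, 13.74 and 13.97 and 13.58, 14.09 and 14.24 on CTRL and HFD. These groups overlapped. *Lcat* in Pparα-/- mice exceeded that in Pparα hep-/- mice by 0.33 (SE 0.11, 1.25-fold, adjusted p = 0.0181) on CTRL and by 0.48 (SE 0.09, adjusted p = 7.24e-05) on HFD. With the processed signal the CTRL difference was 0.26 (adjusted p = 0.102). The difference of Pparα hep-/- from WT mice on HFD was -0.30 (SE 0.10, 1.23-fold, adjusted p = 0.0239), and this was lost without array weights (adjusted p = 0.128), without the wash batch term (adjusted p = 0.0533), with slide in its place (adjusted p = 0.0723) and without the filter on dim probes (adjusted p = 0.0871). No diet effect on *Lcat* was called in limma, with 0.16 (adjusted p = 0.380) for WT, -0.09 (adjusted p = 0.569) for Pparα hep-/- and 0.07 (adjusted p = 0.652) for Pparα-/- mice. Against WT mice Pparα-/- mice differed by 0.27 (adjusted p = 0.0680) on CTRL, where slide in place of the wash batch gave an adjusted p of 0.0383, and by 0.18 (adjusted p = 0.133) on HFD, where it gave 0.0395. No neighbours in its order of means passed the test.

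*Soat2*, the hepatocyte cholesterol acyltransferase, rose with HFD in Pparα-/- mice by 0.31 (SE 0.09, 1.24-fold, adjusted p = 0.00803). There its lowest, median and highest level was 12.14, 12.36 and 12.58 on CTRL and 12.39, 12.64 and 12.87 on HFD. WT mice had 12.02, 12.42 and 12.95 on CTRL and 12.08, 12.27 and 12.53 on HFD, and Pparα hep-/- mice 12.21, 12.35 and 12.69 and 12.29, 12.48 and 12.54. The Pparα-/- HFD mice overlapped with each of these groups. In WT and Pparα hep-/- mice the diet differences were -0.22 (adjusted p = 0.122) and 0.00 (adjusted p = 0.989). The diet effect was more positive in Pparα-/- than in WT mice by 0.53 (SE 0.13, adjusted p = 0.00564), with opposite signs of the fitted differences in the genotypes. On HFD *Soat2* in Pparα-/- mice exceeded that in WT mice by 0.41 (SE 0.09, 1.33-fold, adjusted p = 0.000134) and that in Pparα hep-/- mice by 0.27 (SE 0.08, 1.20-fold, adjusted p = 0.00967). The latter had an adjusted p of 0.107 without array weights and of 0.0711 with the mean of its probes. With the processed signal the rise in Pparα-/- mice was 0.20 (adjusted p = 0.0645 in limma). A second *Soat2* probe was called in none of the 12 comparisons. For the first probe the genotype differences on CTRL were -0.08 (adjusted p = 0.601) for Pparα hep-/- and -0.12 (adjusted p = 0.384) for Pparα-/- against WT mice, and no neighbours in the order of means passed the test.

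**Figure D5:**
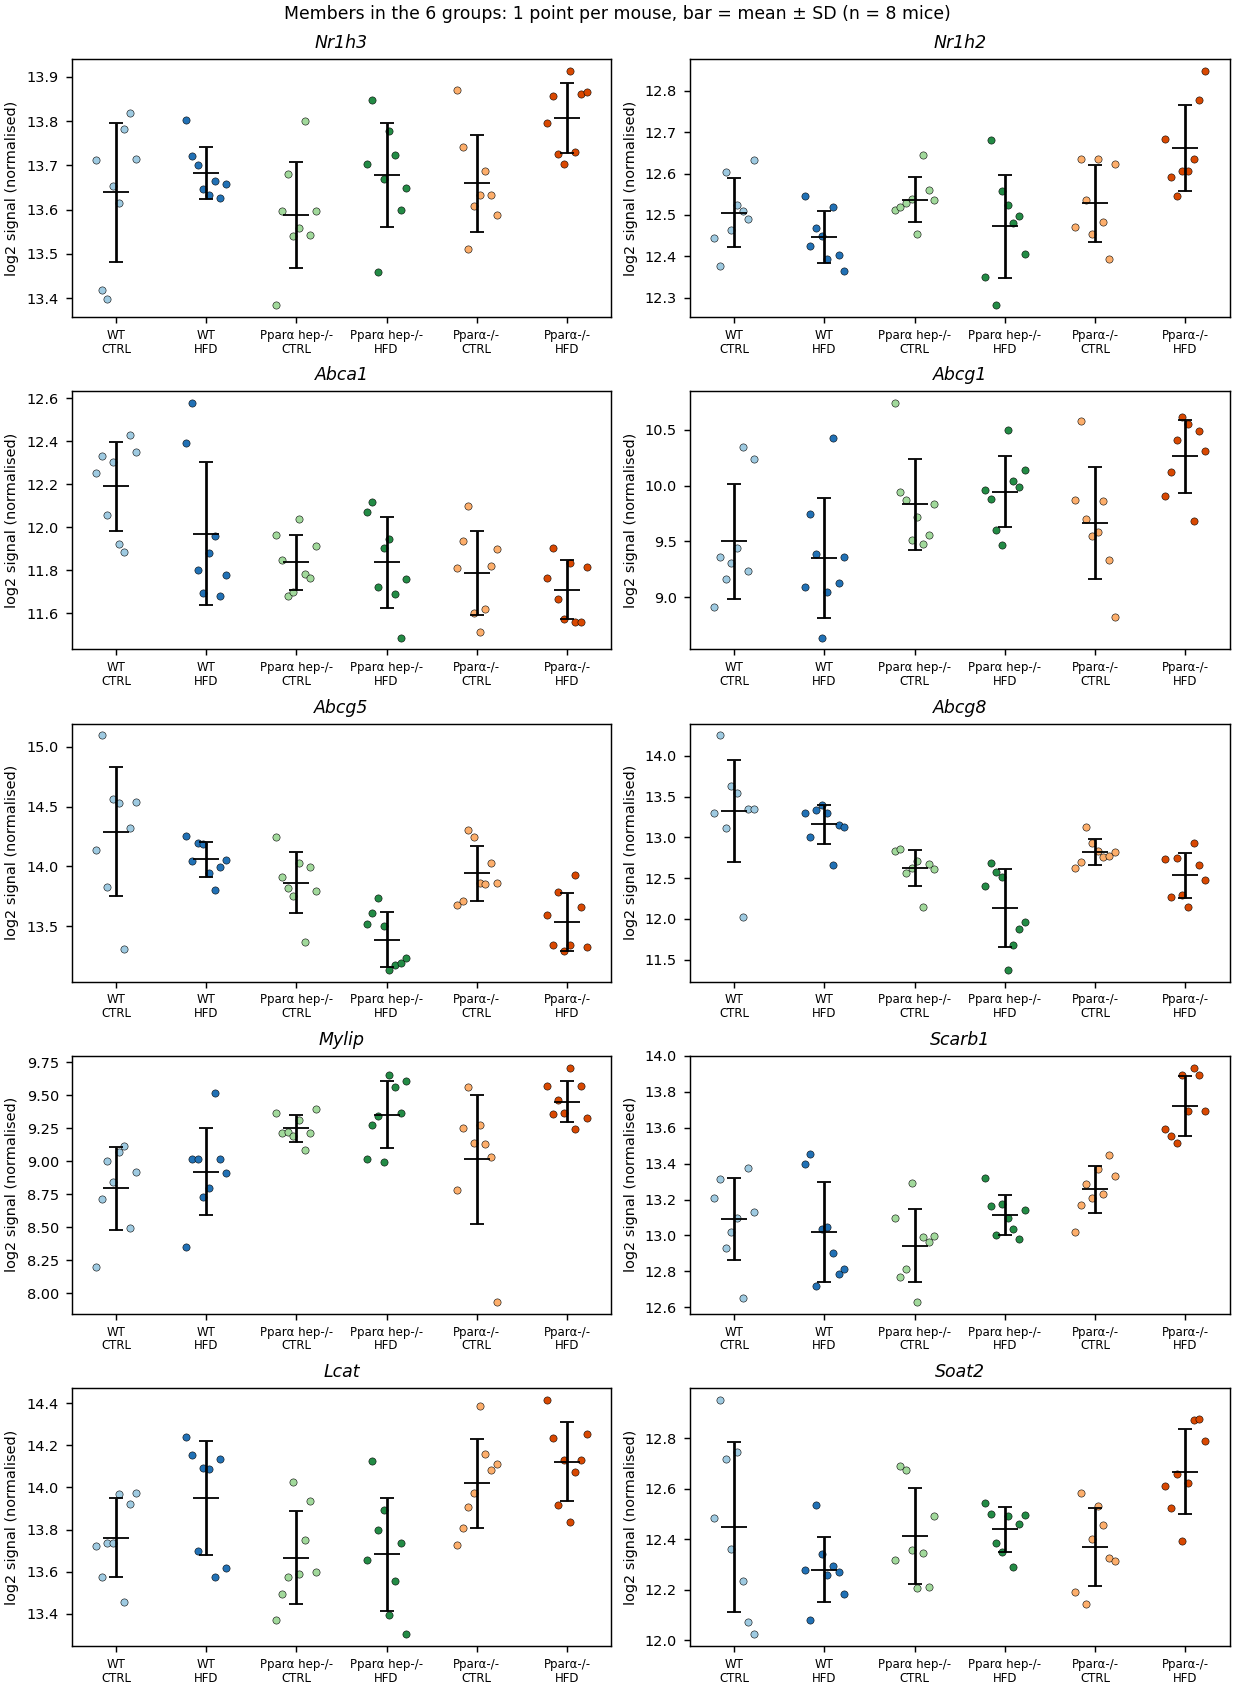
Normalised log2 signal of each of the 10 genes in the 6 groups, 1 point per mouse, with the mean and SD of 8 mice as a black bar. The Scarb1 points of Pparα-/- HFD mice (13.51 and up) stand above all other groups, and Abcg5 and Abcg8 are lowest in Pparα hep-/- HFD mice.

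Of 20 other genes described as LXR targets, 8 were called with HFD in WT mice (2 higher, 6 lower), 9 in Pparα hep-/- mice (2 higher, 7 lower) and 10 in Pparα-/- mice (6 higher, 4 lower). Their median differences were -0.20, -0.13 and -0.02, beside -0.01, -0.01 and -0.02 over all probes, and 40%, 45% and 50% were called, beside 18.7%, 20.2% and 24.8% of all probes. *Scd1*, the desaturase that makes oleate, fell in all 3 genotypes, with -1.23 in WT (adjusted p = 0.0383), -1.85 in Pparα hep-/- (adjusted p = 0.000346) and -4.16 in Pparα-/- mice (adjusted p = 2.22e-10), in limma. *Fasn*, the fatty acid synthase, fell in all 3 as well, with -1.09 in WT (adjusted p = 0.029, and 0.0864 without array weights), -1.47 in Pparα hep-/- (adjusted p = 0.000713) and -1.19 in Pparα-/- mice (adjusted p = 0.00556). *Lpl*, the lipase of triglyceride-rich lipoproteins, fell by 1.26 in WT mice (adjusted p = 0.0147) and rose by 1.17 in Pparα hep-/- (adjusted p = 0.00771) and 1.43 in Pparα-/- mice (adjusted p = 0.00157). The diet effect on *Lpl* was more positive than in WT mice by 2.43 in Pparα hep-/- (adjusted p = 0.00157) and 2.69 in Pparα-/- mice (adjusted p = 0.000347). The WT and Pparα hep-/- calls of *Lpl* and their difference were lost without array weights (adjusted p = 0.0748, 0.49 and 0.149). *Rnf145*, a sterol-regulated ubiquitin ligase, fell in WT (-1.31, adjusted p = 8.95e-10) and Pparα hep-/- mice (-0.50, adjusted p = 0.000654). Its diet effect was more positive than in WT mice by 0.81 in Pparα hep-/- (adjusted p = 0.00117, and 0.0734 without array weights) and 1.22 in Pparα-/- mice (adjusted p = 1.36e-05). *Pltp*, the phospholipid transfer protein, fell by 1.81 in Pparα hep-/- mice (adjusted p = 9.58e-08), where its diet effect differed from WT by -1.75 (adjusted p = 0.000704). It rose by 0.60 in Pparα-/- mice (adjusted p = 0.0435, and 0.135 without array weights), and its diet effects in the Pparα-deficient genotypes were 2.41 apart (adjusted p = 1.27e-05). *Cyp7a1*, the rate-limiting enzyme of bile acid synthesis, rose by 1.35 in WT mice (adjusted p = 0.0253, and 0.139 without array weights). *Abcb1a*, a drug efflux pump, rose by 1.18 in Pparα-/- mice (adjusted p = 0.000321).

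On the CTRL diet 10 of the 20 were called in Pparα-/- against WT mice, all 10 lower, with a median of -0.17, beside 34.2% of all probes called. *Scd1* (-1.40), *Fasn* (-1.38), *Pltp* (-1.29) and *Acaca* (-0.96), the acetyl-CoA carboxylase, were the furthest down. In Pparα hep-/- against WT mice, where 24.7% of all probes were called, 5 were higher and 5 lower, among them *Scd2* (1.09, adjusted p = 0.00235), *Srebf1* (-1.08, adjusted p = 7.43e-05), the lipogenic transcription factor, *Rnf145* (-0.82) and *Abcb1a* (0.82) in limma. Between Pparα-/- and Pparα hep-/- mice, with 25.2% of all probes called, 2 were higher and 8 lower in Pparα-/- mice, led by *Scd1* (-2.09) and *Pltp* (-2.04). Several of the 20 are known to answer to other factors as well as to LXR, and the counts do not separate these.

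Of 16 partners and cofactors of LXR, 7 were called with HFD in WT mice (3 higher, 4 lower), and 2 each in Pparα hep-/- and Pparα-/- mice (1 higher, 1 lower). The list had 43.8% called in WT mice, above the 18.7% of all probes, and 12.5% in the other genotypes, below the 20.2% and 24.8% of all probes. *Rxrg*, a retinoid X receptor, rose by 1.11 in WT mice (adjusted p = 2.15e-05), and *Pprc1* (-0.76) and *Tbl1x* (-0.41) fell there in limma. *Gps2* (-0.27) fell and *Rxra* (0.15) rose in Pparα hep-/- mice, and in Pparα-/- mice *Tbl1x* (-0.23) fell and *Hdac3* (0.16) rose, both as in WT mice. On CTRL 10 of 16 were called in Pparα hep-/- against WT mice (4 higher, 6 lower) and 9 of 16 in Pparα-/- against WT mice (3 higher, 6 lower), beside 24.7% and 34.2% of all probes. *Rxrg* was higher there by 1.17 and 0.80 and *Pprc1* lower (-0.63 and -0.56). Medians of the list lay between -0.13 and 0.08 in all 12 comparisons.

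Among 20 genes of HDL and reverse cholesterol transport, 5 were called with HFD in WT (3 higher, 2 lower), 8 in Pparα hep-/- (2 higher, 6 lower) and 9 in Pparα-/- mice (6 higher, 3 lower). These are 25%, 40% and 45% of the list, beside 18.7%, 20.2% and 24.8% of all probes. *Abcb11*, the bile salt export pump, fell in all 3 genotypes (-0.56, -0.47 and -0.63, in the same order). *Abcb4*, the phospholipid flippase of bile, rose in all 3 (0.44, 0.67 and 0.62). *Apoa4*, an intestinal and hepatic apolipoprotein, rose in Pparα hep-/- (0.80) and Pparα-/- mice (1.12). Adjusted p of these calls lay between 3.35e-05 and 0.0142 in limma, and those of *Abcb11* in Pparα hep-/- and *Abcb4* in WT mice were 0.0634 and 0.0817 without array weights. On CTRL 9 of 20 were called in Pparα hep-/- (4 higher, 5 lower) and 11 of 20 in Pparα-/- mice (3 higher, 8 lower) against WT mice, beside 24.7% and 34.2% of all probes. *Apoa4* was higher by 1.07 and 1.52 there, and *Abcb11* lower (-0.54 and -0.81).

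Of 18 tested genes of cholesterol esters and intracellular sterol transport, 5, 4 and 6 were called with HFD in WT, Pparα hep-/- and Pparα-/- mice. These are 27.8%, 22.2% and 33.3% of the 18 tested genes, beside 18.7%, 20.2% and 24.8% of all probes. *Soat1*, the isoform of *Soat2* found in most tissues, rose in Pparα hep-/- (0.50, adjusted p = 0.00483) and Pparα-/- mice (0.38, adjusted p = 0.0342) in limma, and *Stard4*, a cytosolic sterol carrier, fell in both (-0.81 and -0.46). *Lipa*, the lysosomal cholesterol ester hydrolase, rose by 0.29 in WT mice (adjusted p = 0.0408). On CTRL *Nceh1*, a neutral cholesterol ester hydrolase, was lower than in WT mice in Pparα hep-/- (-0.71, adjusted p = 0.00012) and Pparα-/- mice (-1.06, adjusted p = 6.73e-08).

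Enzymes that make or remove oxysterols, the ligands of LXR, included large swings. *Cyp39a1*, an oxysterol hydroxylase, was lower in Pparα-/- than in WT mice on CTRL (-3.95, adjusted p = 1.01e-13) and rose with HFD in Pparα-/- mice by 2.62 (adjusted p = 1.03e-08), in limma. In WT mice it fell with HFD by 0.93 (adjusted p = 0.035), and the diet effect of Pparα-/- mice differed from that of WT mice by 3.54 (adjusted p = 1.49e-06). *Cyp7b1*, another oxysterol hydroxylase, fell with HFD in Pparα-/- mice by 1.57 (adjusted p = 0.000276). *Ch25h*, an oxysterol-making hydroxylase of cholesterol, rose in Pparα hep-/- mice by 0.71 (adjusted p = 0.0252). *Cyp27a1*, the mitochondrial sterol hydroxylase, fell in Pparα hep-/- (-0.51, adjusted p = 0.00265) and Pparα-/- mice (-0.65, adjusted p = 0.000257). In WT mice *Hsd3b7* rose by 0.68 (adjusted p = 3.05e-05) and *Sult2b1*, an oxysterol sulfotransferase, fell by 0.88 (adjusted p = 0.0154). In all, 4 of the 10 oxysterol genes were called with HFD in each genotype, with 2, 1 and 1 of them higher in WT, Pparα hep-/- and Pparα-/- mice. That is 40% of the list, beside 18.7%, 20.2% and 24.8% of all probes in that order.

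The genes of sterol synthesis, which answer to SREBP-2, were called in opposite directions in WT and Pparα hep-/- mice. With HFD 9 of 21 rose and 0 fell in WT mice, with a median of 0.47. Of the 21, 17 fell in Pparα hep-/- mice, with a median of -0.96. In Pparα-/- mice 3 of 21 fell, with a median of -0.15. The shares called were 42.9%, 81% and 14.3%, beside 18.7%, 20.2% and 24.8% of all probes in the same order. The diet effect differed between Pparα hep-/- and WT mice for 17 of 21 genes in limma, all more negative in Pparα hep-/- mice, beside 10.4% of all probes. Without array weights 298 in place of 3472 probes were called in that comparison, and 1270 in place of 6735 with HFD in Pparα hep-/- mice. The counts of this list without array weights are not given here. On HFD 20 of 21 were lower in Pparα hep-/- and 21 of 21 in Pparα-/- than in WT mice, with medians of -1.09 and -1.16, beside 26.7% and 45.7% of all probes called. On CTRL the direction differed in Pparα hep-/- mice, where 7 of 21 were higher and 2 lower than in WT mice (median 0.47, with 24.7% of all probes called). There 2 were higher and 9 lower in Pparα-/- than in WT mice (median -0.46, with 34.2%), and 16 were lower in Pparα-/- than in Pparα hep-/- mice (median -0.73, with 25.2%). The diet effect was more positive in Pparα-/- than in Pparα hep-/- mice for 8 of 21, beside 3.42% of all probes.

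Over the 48 arrays, with wash batch means subtracted, the gene most like *Abcg5* was *Abcg8* (r = 0.93), followed by *Trabd* (r = 0.76). *Atp8b1* was most like *Abca1* (r = 0.798), *Serping1* most like *Scarb1* (r = 0.786) and *Cpsf4* most like *Lcat* (r = 0.79). *Eef2kmt* was most like *Nr1h2* (r = 0.795), *Lcn2* most like *Nr1h3* (r = 0.675) and *Unc93a* most like *Soat2* (r = 0.682). The arrays share their groups, so these values describe the pattern over groups and mice together.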

How the data were processed

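RNA from the livers of 48 male mice was hybridised to 1-colour Agilent arrays, 1 array a mouse, and per the file headers the deposited spot intensities (median, mean and local background of each spot) were extracted with Agilent Feature Extraction 10.10.1.1 and not normalized further. The deposited log2 table had been made by the authors from median intensities, filtered, quantile normalized and corrected for the washing bath. Probe positions in the files are on mm9. Here log2 median intensities without outlier spots were quantile normalized over 48 arrays (195 missing values remained among tested probes, and none in the 10 genes), and the deposited table served as an alternative (r = 0.9994 to 0.9995 per array over 32815 probes). Arrays had median intensities of 56 to 91 over a local background of 20 to 36, with 28234 to 38217 spots well above background, and the number of arrays limits precision.

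A probe was tested if Feature Extraction marked it as well above background in no fewer than 4 of the 8 mice of some group. The tested probes entered 1 limma fit (limma 3.58.1, R 4.3.3) over the 6 groups, with array weights, wash batch as a term (2 batches, 3 to 5 mice of each group in each) and Benjamini-Hochberg adjustment per comparison. A gene was read by its brightest tested probe. Correlations over mice used deviations from group and wash batch means with 100000 permutations. Steps across many probes were tested on simulated data. Alternatives were no array weights, no wash batch term, slide in its place, a replicate block, the processed signal scaled to the 75th percentile, normexp background correction (offset 50), the deposited table, no filter and a stricter filter on dim probes, the mean of a gene's probes, and, chosen after the weights were seen, the fit without the 2 arrays of lowest weight. Fits leaving out each mouse in turn were not run.

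The rule for named genes took all 10 genes, of which every call is given and values without a call in part, and of each gene list up to 4 called genes with the largest change per diet comparison and per genotype comparison on CTRL. Some genes of the lists are not reported here by name. The 10 genes, the gene lists, the cell type markers and the tests were chosen with earlier results of these data known, so no list is independent evidence of its direction. Promoter letters come from a RefSeq table of GRCm38.p6.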

Additional observations from a re-analysis of the deposited data

Results flagged for a closer look

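In 60 sets of 8 mice (10 genes in 6 groups) the highest or lowest mouse was set against the range of its group, and chance would set apart about 1 in 20 such sets, or 3. There were 2. *Abcg1* was 10.74 in Pparα hep-/- CTRL mouse 1, with the nearest mouse at 9.94, and that array had the lowest weight of all, 0.189. *Abcg8* was 12.14 in Pparα hep-/- CTRL mouse 6, with the nearest at 12.56 and an array weight of 1.67.

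The diet effect differed between genotypes by an interaction test in limma for 5 pairs of gene and comparison. Against WT mice the HFD effect of Pparα-/- mice was more positive by 0.80 for *Abcg1*, 0.24 for *Nr1h2*, 0.67 for *Scarb1* and 0.53 for *Soat2*. Against Pparα hep-/- mice it was more positive by 0.22 for *Nr1h2*. Those of *Scarb1* and *Soat2* also passed without array weights (adjusted p = 0.0174 and 0.0376 in limma), and the other 3 did not.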

How the results depend on the processing

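Of 120 values (10 genes in 12 comparisons), the deposited log2 table left all 120 in direction and call. Without array weights 16 calls were lost, and the genes called numbered 0, 1 and 4 with HFD in WT, Pparα hep-/- and Pparα-/- mice, 2 for Pparα hep-/- against WT and 3 for Pparα-/- against Pparα hep-/- mice on HFD, and 2 and 0 for the diet effect of Pparα-/- against WT and against Pparα hep-/- mice. With slide in place of the wash batch WT mice had 2 calls with HFD, and the diet effect of Pparα-/- against Pparα hep-/- mice had 0. That last count was also 0 without the filter on dim probes, with the mean of a gene's probes and with the replicate block, where *Nr1h2* was 0.22 (adjusted p = 0.0631 in limma). The replicate block changed no other call. Same-numbered mice of different groups correlated between -0.46 and 0.69 (median 0.0454), so the numbers do not pair them. With the processed signal 4 genes were called with HFD in Pparα-/- mice and 1 for Pparα-/- against Pparα hep-/- mice on CTRL, and *Nr1h3* turned to -0.14 (adjusted p = 0.027) for Pparα hep-/- and -0.0038 (adjusted p = 0.954) for Pparα-/- against WT mice on HFD. For the diet effect of Pparα hep-/- against WT mice, normexp gave 2 calls, *Abca1* and *Scarb1*, and the stricter filter 1, *Abca1*. For Pparα-/- against WT mice, no filter gave 2. Without the 2 arrays of lowest weight, WT mice had 2 calls with HFD, and no other count changed. The cause was not tested in any of these cases. Abcg5 and Abcg8 correlated between 0.82 and 0.92 under every alternative run. Over all probes, without array weights 1270 in place of 6735 were called with HFD in Pparα hep-/- mice, 4034 in place of 8273 in Pparα-/- mice, 3244 in place of 8893 and 6047 in place of 10188 for Pparα hep-/- mice against WT and Pparα-/- mice on HFD, and 298, 1740 and 110 in place of 3472, 4781 and 1139 for the differences of the diet effect (Pparα hep-/- against WT, Pparα-/- against WT, Pparα-/- against Pparα hep-/-). In those with the diet effect, the first fell to 2185, 2122, 2276 and 1226 with no wash batch term, slide, the replicate block and no filter, the second to 3099 with no wash batch term and 2528 with no filter, and the third to 399 with no filter. With no wash batch term and no filter 4236 and 3578 were called with HFD in Pparα hep-/- mice, and with no filter 5633 for these against WT mice on HFD. The processed signal moved the share of calls that were higher from 46.8 to 35.5% and from 49.3 to 35.6% with HFD in Pparα hep-/- and Pparα-/- mice, from 49.7 to 37.8% for Pparα hep-/- against WT mice on HFD, and from 44.4 to 31.2% and 48.3 to 29.9% for the diet effects against WT mice.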
